A study of Larimichthys polyactis and Larimichthys crocea with 36 samples.

Results

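Livers of the large yellow croaker (Larimichthys crocea, LC) were compared with livers of the small yellow croaker (Larimichthys polyactis, LP), with 3 RNA sequencing libraries of each species. The genes compared were all identifiers (IDs) of the deposited table with at least 1 FPKM (fragments scaled by gene length and library total) in at least 3 of these 6 libraries, which left 11809 of the 24212 IDs listed. The series holds 36 libraries in 12 groups of 3, from brain, liver and muscle of both species and of their reciprocal hybrids, named LPC and LCP. It concerns heterosis in growth, that is, growth traits in which hybrids exceed their parents. LC liver and LP liver are the groups compared here. The hybrid livers and the brain and muscle libraries of the species serve for reference. The labels give species and tissue, and no treatment, age, sex or rearing condition. Whether a library is 1 fish, a pool or a repeat of the same fish is not stated. The p-values therefore reflect only how these libraries vary, which may be technical variation.

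Both species are marine fish of the croaker family, bred for food in East Asia, and they can be crossed. The liver of a bony fish makes most of the proteins of the blood plasma, such as albumin-like carriers, apolipoproteins, transferrin and clotting factors. It stores and exports lipid, detoxifies, and in maturing females makes the yolk protein precursor vitellogenin, so a handful of secreted products can fill much of its messenger RNA. The files do not pair the IDs with gene names. No function is therefore given for any ID, and groups are described by the type of ID, by tissue of expression and by level. Among the 11809 IDs, 10759 were EVM gene models (IDs that start with evm) with a chromosome number, 29 were EVM models without one and 1021 were BGI_novel transcripts.

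The tissue and species labels were checked with IDs chosen in other libraries. IDs enriched in the livers of the hybrids (mean of at least 5 FPKM and at least 4 times that of brain and of muscle) held 54.2% to 57.3% of the FPKM sum in LC livers and 56.8% to 65.8% in LP livers. IDs enriched in hybrid brain held 1.86% to 2.37% in the 6 livers, and those enriched in hybrid muscle 0.587% to 1.11%. Only 4 IDs were found in all LC libraries of brain and muscle and under 0.1 FPKM in all LP ones, and all 4 were found in the 3 LC livers and in no LP liver. The 8 IDs of the reverse kind had 6 found in all LP livers, and none reached 1 FPKM in an LC liver. No library went against its label. LC 2 and LP 1 stood apart from the other parental livers in a group of IDs each, described further on, and counts without them are given beside the results. Known marker genes could not be looked up without gene names.

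On the deposited scale, LC and LP livers differed in both directions to a similar extent. Among the 11809 IDs compared, 560 were called higher in LC and 577 lower (limma, Benjamini-Hochberg adjusted p under 0.05), which is 9.63% in all, 4.74% higher and 4.89% lower. Of these calls, 174 higher and 220 lower ones were of IDs that reached 1 FPKM in 1 species only. Such IDs entered the comparison through the species where they were higher, so their calls add no support. The counts and shares of calls given here and below include them. The median difference over all IDs was 0.01 on the log2(FPKM + 1) scale. Among the called IDs, 523 higher and 528 lower ones differed by at least 2-fold, 184 and 217 by at least 4-fold, and 47 and 59 by at least 16-fold. The largest log2 differences were 9.08 and -9.85. The smallest that were called were 0.81 and -0.72. In simulated data with the spread of these livers, a small set of better expressed IDs was changed and all others were left equal. There a log2 difference of 2 was recovered for 63% of changed IDs and one of 4 for 89%, while one of 1 was recovered for 0%. Fewer IDs differed there than were called in the livers, which makes the adjustment stricter. These shares therefore do not give the sensitivity in the livers. In the livers, 1908 IDs differed by at least 2-fold and 1051 of them (55.1%) were called.

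The counts depended on which libraries were used. Leaving out LC 1 gave 308 higher and 351 lower, LP 1 gave 314 and 387, LP 2 gave 263 and 338, and LP 3 gave 280 and 296. Without LC 2 there were 510 and 437, and without LC 3 there were 465 and 348. With the libraries set to an equal sum that excluded the 50 most abundant IDs, 426 were higher and 906 lower, and the median fell to -0.18. With each library set to an equal sum there were 472 and 705, and the median was -0.08. Nearly equal numbers in both directions were thus found as deposited and under median-ratio, common-median and quantile scaling, and not on those 2 scales. Median-ratio, common-median and quantile scaling set the libraries to a common centre or distribution, which favours equal numbers. Their near-equal counts therefore add no support, and the balance depends on the scale.

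**Figure D1:**
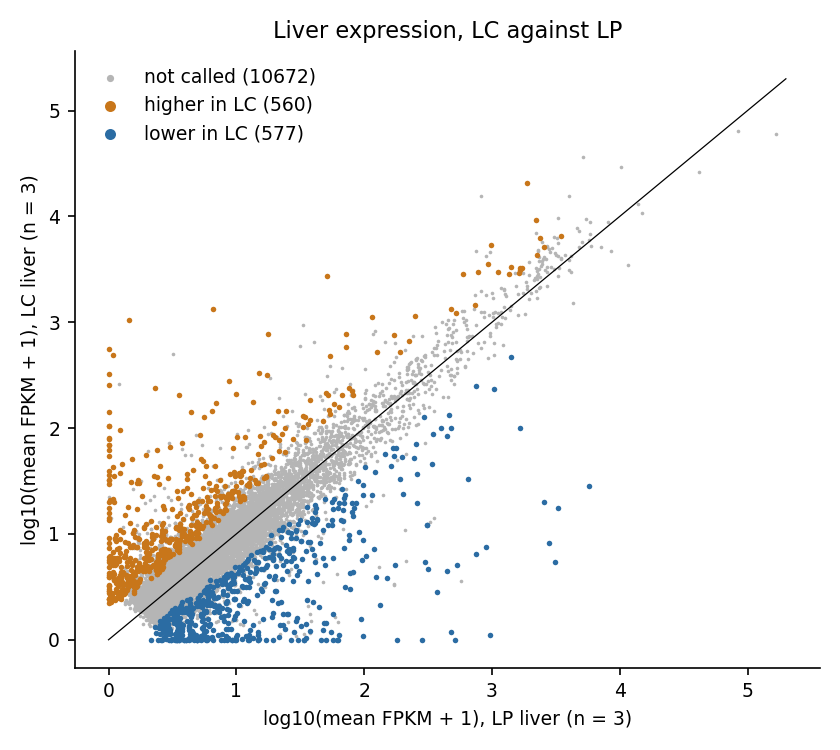
Mean FPKM of each of the 11809 IDs in LC liver (vertical axis) against LP liver (horizontal axis), both as log10(mean FPKM + 1) over 3 libraries. Coloured points are the 560 IDs called higher and the 577 called lower in LC; points along the 2 axes are IDs near 0 in 1 species.

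All 3 libraries of one species lay above all 3 of the other for 3791 IDs, 32.1% of those tested. LC was above LP in 1939 of them (16.4%) and LP above LC in 1852 (15.7%). All 560 and all 577 called IDs were among them, which a call from 3 libraries against 3 largely requires, so it adds no support. The 6 livers correlated at a Spearman coefficient of 0.834 to 0.898 within LC and of 0.892 to 0.902 within LP. Between the species it was 0.711 to 0.754, so each pair of libraries within a species was closer than any pair across species. The lower values within LC were those of LC 2, while LC 1 and LC 3 correlated at 0.898. The SD of an ID over the 3 libraries had a median of 0.34 log2 units in LC and 0.28 in LP. More than 2-fold was spanned by 27.4% of IDs in LC against 16.9% in LP. The wider spread in LC went largely with LC 2. The typical gap between LC 1 and LC 3 was 0.338 log2 units, and pairs with LC 2 had 0.408 and 0.422. Pairs of LP livers had 0.309 to 0.332. For IDs of at least 1000 FPKM the median SD was 0.25 in LC and 0.32 in LP.

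The IDs that filled most of the liver's RNA were largely shared. Of the 100 most abundant IDs of each species by mean FPKM, 85 were in both lists. Of the 115 in either list, 18 were higher and 6 lower in LC and 91 were not called, which is 20.9% called against 9.63% over all IDs. Leaving out any 1 library gave 7 to 13 higher and 3 to 6 lower (8.70% to 15.7%, against 4.88% to 8.02% of all IDs), with 7 higher without LC 1 or LP 1. After quantile normalization 9 were higher and 9 lower, and with equal sums 10 and 8. By library, the top 100 IDs made up 70.2% ± 1.14 of the FPKM sum in LC livers and 71.0% ± 2.22 in LP livers (SD, n = 3 each; exact 2-sided permutation p = 0.7). The single most abundant ID held less in LC, at 9.20% ± 0.52 against 18.6% ± 5.29 in LP (SD, n = 3 each). All LC values were below all LP values there, with an exact 2-sided permutation p of 0.1, the smallest that 3 libraries against 3 allow.

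The top ID itself was not the same in every library, and the IDs named here were chosen by their level. In all LP livers it was evm.model.Chr8.886, at 150018, 214412 and 134029 FPKM in LP 1 to 3, against 60830, 30236 and 90832 in LC 1 to 3. Every LC value lay below every LP value, and the difference did not pass the test (log2 difference -1.56, SE 0.40, limma adjusted p = 0.0518). In LC 1 the first place went to evm.model.Chr7.373, with 81595, 32652 and 79337 FPKM in LC 1 to 3 and 77096, 87978 and 88406 in LP 1 to 3. The species overlapped for this ID (limma adjusted p = 0.419). In LC 2 the most abundant ID was evm.model.Chr20.749, which is described with the IDs of that library below.

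Among the most abundant IDs of broad expression, LC liver had mostly the higher values on the deposited scale. The 351 broad IDs (at least 5 FPKM in brain, liver and muscle of the hybrids, within 2-fold of each other) had 27 higher and 15 lower in LC and 309 not called, against 4.74% higher and 4.89% lower over all IDs. That balance did not hold: there were 11 and 11 without LC 1, 17 and 14 without LC 2, 13 and 9 without LC 3, 9 and 10 without LP 1, 8 and 9 without LP 2, and 11 and 9 without LP 3. With 1 library left out, 4.84% to 8.83% of broad IDs were called, close to the 4.88% to 8.02% of all IDs. With equal sums there were 16 higher and 17 lower, and with sums that exclude the 50 most abundant IDs 15 and 26. Of the 42 broad IDs with a mean of at least 1000 FPKM over the 6 livers, 10 were higher and 0 lower. That is 23.8% called, against 9.63% of all IDs. Their median log2 difference was 0.71. The differences ranged from -0.38 to 1.96, and 38 of the 42 were positive, against 51.0% of all IDs. All LC libraries were above all LP libraries for 29 of the 42 (69.0%, against 16.4% of all IDs), and the reverse held for 0 (15.7% of all IDs). Part of this was shared by abundant IDs of any class. Of all 144 IDs with a mean of at least 1000 FPKM, which include the 42, 75.7% were positive. All LC libraries were above all LP libraries for 36.1% of the 144, and the reverse held for 6.25%. Together these 42 IDs took 15.1% to 17.0% of the FPKM sum in LC livers and 9.26% to 12.9% in LP livers. This crossing of tissue class with level was chosen after its values were seen. The LP libraries also gave a larger part of their sum to their single most abundant ID, as given above, and the part of that in these differences was not tested.

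The median of these 42 IDs stayed positive while their calls did not hold. Leaving out any 1 library left 2 to 4 of the 42 called higher and 0 lower, with a median between 0.62 and 0.80. That is 4.76% to 9.52% called, against 4.88% to 8.02% of all IDs, whose calls fell as well. The median was 0.59 with equal sums (3 higher, 0 lower), 0.46 with sums that exclude the 50 most abundant IDs (4 and 0) and 0.19 after quantile normalization (3 and 1). In the other tissues, after median-ratio scaling, the same 42 IDs had a median LC minus LP difference of 0.18 in brain and 0.95 in muscle, against -0.07 over the compared IDs in each. The 144 IDs of at least 1000 FPKM in liver had 0.11 in brain (103 tested) and 0.91 in muscle (92 tested). These values were thus not particular to the broad IDs. Over all 144 IDs with a mean of at least 1000 FPKM in liver, 19 were higher and 5 lower in LC, and the median was 0.41 as deposited and -0.08 after quantile normalization, with 9 higher and 8 lower there. Those 19 calls became 7 without LC 1 or LP 1, 8 without LC 3, LP 2 or LP 3, and 14 without LC 2. In both directions together, 16.7% of the 144 were called, against 9.63% of all IDs. With 1 library left out it was 6.25% to 12.5%, against 4.88% to 8.02% of all IDs.

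IDs enriched in liver were called more often than most, and in both directions. Of the 783 liver-enriched IDs compared, 57 were higher and 88 lower in LC liver, which is 18.5% against 9.63% over all IDs, with 638 not called and a median of 0.04. The median size of their differences, sign aside, was 0.76 log2 units, against 0.39 over all IDs. With 1 library left out at a time, 12.9% to 18.6% were called, against 4.88% to 8.02% of all IDs. Liver-enriched IDs without LC 1 had 45 higher and 57 lower, without LP 2 they had 42 and 60, and without LP 3 they had 43 and 58. Without LC 2 there were 71 higher and 75 lower, so the excess of lower calls was slight there. Over the 5 other scalings there were 51 to 58 higher and 88 to 117 lower.

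Of the 5 tissue classes, brain-enriched IDs that reached 1 FPKM in liver were called least. Among 2989 such IDs, 114 were higher and 80 lower (6.49%) and the median was 0.02, while with equal sums 85 were higher and 110 lower. Without any 1 library 2.28% to 4.78% were called, lowest without LP 3 with 41 higher and 27 lower. Muscle-enriched IDs had 14 higher and 13 lower of 187 (14.4%; 6.42% to 13.4% without any 1 library, lowest without LP 2 or LP 3), and the remaining 7499 IDs had 348 and 381 (9.72%). The classes were drawn from hybrid libraries, which the comparison of LC with LP does not use. They differ in level, and calls were more frequent among abundant IDs. IDs with a mean under 5 FPKM had 8.8% called, those from 5 to 20 had 9.07%, those from 20 to 100 had 12.1%, those from 100 to 1000 had 16.6% and those of at least 1000 had 16.7% (11.8% after quantile normalization). Within the bin from 20 to 100 FPKM, 55 of 279 liver-enriched IDs (19.7%) were called and 11 of 134 brain-enriched IDs (8.21%).

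**Figure D2:**
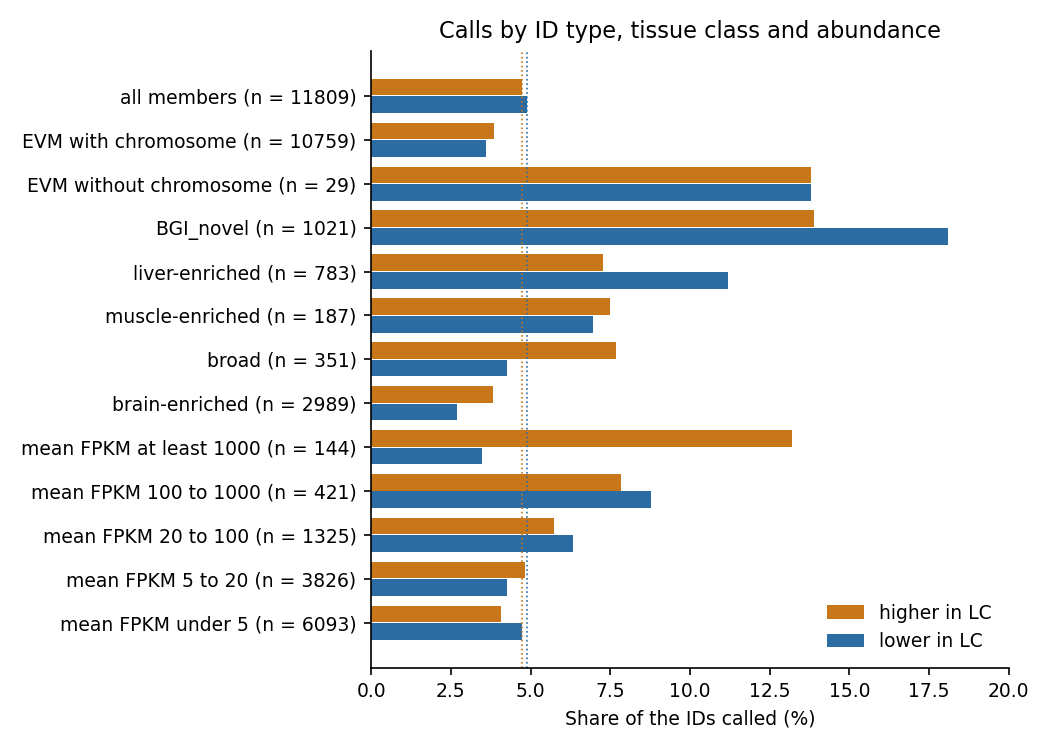
Share of IDs called higher (upper bar) or lower (lower bar) in LC liver than in LP liver, as a percentage of the IDs compared in each group; dotted lines mark the shares over all IDs. BGI_novel transcripts had 13.9% higher and 18.1% lower, against 4.74% and 4.89% over all IDs.

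The share called differed most between types of ID. BGI_novel transcripts had 142 higher and 185 lower of 1021, which is 32.0%, while EVM models with a chromosome number had 414 and 388 of 10759, which is 7.45%. The 29 EVM models without a chromosome number had 4 higher and 4 lower (27.6%). Some BGI_novel IDs had the same values in all 6 livers, such as BGI_novel_G000239 and BGI_novel_G000240, both called higher. A signal can therefore be counted more than once among them, and the number of such IDs was not determined. With 1 library left out at a time, 24.4% to 28.7% of the BGI_novel transcripts were called and 3.02% to 6.04% of the EVM models with a chromosome number. Over the 5 other scalings it was 32.4% to 33.8% and 7.79% to 9.10%. The BGI_novel shares include IDs found in 1 species only, 36 in LC and 51 in LP by the rule given below. With absence set under 0.5 FPKM there were 69 and 90. Those IDs entered the comparison through the species that had them, so their calls add no support. The same holds for every ID that reached 1 FPKM in 1 species only, which was not counted by type of ID. The shares were not recounted without such IDs, so the contrast between types of ID includes this effect of the filter, of unknown size. How the BGI_novel models were built, and from which libraries, is not given in the sources used here, and neither is the species of the genome behind the IDs. The part of either in the differences between species was not tested.

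Calls were spread over all 24 chromosome numbers of the EVM models. The share called ran from 4.73% on number 13 (10 higher and 9 lower of 402) to 11.8% on number 24 (20 higher and 11 lower of 262). The median log2 difference per chromosome number lay between -0.04 and 0.07. IDs with consecutive numbers on a chromosome were also compared, as a description. There were 4633 such pairs, in which the second ID was lower in 3.67% overall and in 10.7% where the first was lower (21 pairs). For higher IDs these shares were 4.04% and 5.49% (10 pairs), and 16 pairs were called in opposite directions. The files do not state that the number gives the position along the chromosome.

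Some IDs were found in 1 species only, most of them BGI_novel. Counting an ID as found at 1 FPKM or more in all 3 libraries and as absent under 0.1 FPKM in all 3 of the other species, 54 were found only in LC liver and 69 only in LP liver. BGI_novel transcripts made up 36 of the 54 of LC (66.7%) and 51 of the 69 of LP (73.9%), against 8.65% of all IDs compared. In the other species, 46 of the 54 of LC and 52 of the 69 of LP were listed at 0 in every library. Their mean level in the species that had them was mostly low, with a median of 6.85 FPKM in the 54 of LC and 4.80 FPKM in the 69 of LP. It reached 561 FPKM in LC, with 6 IDs at 100 FPKM or more, and 510 FPKM in LP, with 3. Of those 6, BGI_novel_G000354 and BGI_novel_G000355 had the same values in every parental liver, so they may be a single signal. Because such IDs enter the comparison through 1 species, their calls (51 of the 54 of LC and 64 of the 69 of LP) add no support. More loosely, 259 IDs had at least 1 FPKM in all LC libraries and in no LP library, and 174 of them were called higher (4.74% over all IDs). The reverse held for 324, of which 220 were called lower (4.89% over all IDs). These IDs also entered the comparison through 1 species, so their calls add no support either.

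In hybrid livers, few of the IDs found in 1 species reached 1 FPKM throughout, and their median level was below that of the species that had them. Of the 54 IDs of LC, 7 were at 1 FPKM or more in all 6 hybrid livers and 7 stayed under 0.1 FPKM in all 6. Of the 69 of LP, 13 and 2 did so. Over all IDs compared, 67.8% were at 1 FPKM or more in all 6. That is not a like background, since 8831 of all IDs compared reached 1 FPKM in all 6 parental livers. The IDs found in 1 species were under 0.1 FPKM in the other and mostly low. Relative to the LC mean, the 54 IDs had a median level of 32.0% in LPC and 14.3% in LCP, and relative to the LP mean the 69 had 29.5% in LPC and 17.8% in LCP. Outside liver, 20 of the 54 were found in all LC brain libraries, 8 of them absent from LP brain, and 29 of the 69 were found in all LP brain libraries, 12 of them absent from LC brain. In muscle, 10 of the 54 were found in all LC libraries (5 absent from LP) and 13 of the 69 in all LP libraries (10 absent from LC).

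A fixed rule picked 4 IDs to be shown by library, and all 4 were liver-enriched in the hybrids. In each direction it took, among called IDs whose libraries do not overlap, the largest difference with a mean of at least 5 FPKM in both species, and the highest mean in the species where the ID was higher. An ID that met both was replaced, in the choice by level, by the next one, as happened among the lower IDs. Since the rule required a call and no overlap, neither adds support for these 4 IDs, and their values are a description. The first was BGI_novel_G000770, with 1555, 242 and 2163 FPKM in LC 1 to 3, against 0.29, 0 and 16.3 FPKM in LP 1 to 3. Each LC library lay above every LP library, with LC 2 the lowest of LC and LP 3 the highest of LP. The means were 1320 ± 982 FPKM in LC livers and 5.53 ± 9.33 FPKM in LP livers (SD, n = 3 each). The log2 difference was 8.38 (SE 1.23, limma adjusted p = 0.00748). In hybrid livers it was low, at 45.3, 0.42 and 2.05 FPKM in LPC and 4.58, 2.91 and 87.4 FPKM in LCP.

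The most abundant ID among those higher in LC was evm.model.Chr13.19. It had 28446, 13647 and 20513 FPKM in LC 1 to 3, against 2673, 1210 and 1780 FPKM in LP 1 to 3. The species were far apart relative to their spread, with means of 20870 ± 7406 FPKM in LC livers and 1888 ± 737 FPKM in LP livers (SD, n = 3 each), an 11.1-fold difference of means (log2 difference 3.48, SE 0.38, limma adjusted p = 0.00232). It was called under each of the 20 other settings tried, with limma adjusted p from 1.56e-04 to 0.0169. So were BGI_novel_G000770 (limma adjusted p up to 0.0334) and evm.model.Chr1.107 (limma adjusted p up to 0.0459). The settings reuse the liver libraries by which these IDs were chosen. Hybrid livers had 1991, 1195 and 2627 FPKM in LPC and 2098, 2894 and 1873 FPKM in LCP, which overlapped LP and lay far below LC. In brain its means were 10.8 ± 15.0 FPKM in LC and 5.12 ± 3.73 FPKM for LP libraries (SD, n = 3 each), and the call was not made there (limma adjusted p = 0.893). The test of the liver against the brain difference did not pass (difference 3.17, SE 1.23, limma adjusted p = 0.247).

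Among lower IDs with a mean of at least 5 FPKM in both species, the largest difference was that of evm.model.Chr16.192, with 2.38, 76.1 and 4.0 FPKM in LC 1 to 3, against 290, 7234 and 9739 FPKM in LP 1 to 3. The libraries did not overlap, but they varied widely within each species, with LC 2 the highest of LC and LP 1 the lowest of LP. The log2 difference was -7.97 (SE 1.60, limma adjusted p = 0.0237). The call was lost without LC 1, LC 3, LP 2 or LP 3 and with no filter on low values, and over all settings the limma adjusted p ran from 8.48e-04 to 0.0868. Hybrid livers had 3285, 347 and 4201 FPKM in LPC and 449, 199 and 89.5 FPKM in LCP, all above the LC libraries.

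Second by level among the lower IDs, after evm.model.Chr16.192, was evm.model.Chr1.107, whose level in LP rested largely on 1 library. It had 4.68, 24.4 and 21.1 FPKM in LC 1 to 3, against 8637, 448 and 777 FPKM in LP 1 to 3. The species did not overlap, and LP 1 was far above the other LP livers. The log2 difference was -6.62 (SE 1.11, limma adjusted p = 0.0125), and without LP 1 it was still called at -5.33. Hybrid livers had 16.7, 1620 and 558 FPKM in LPC and 85.9, 118 and 17.1 FPKM in LCP, so LPC 1 and LCP 3 lay among the LC values and LPC 2 and LPC 3 among the LP values.

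**Figure D3:**
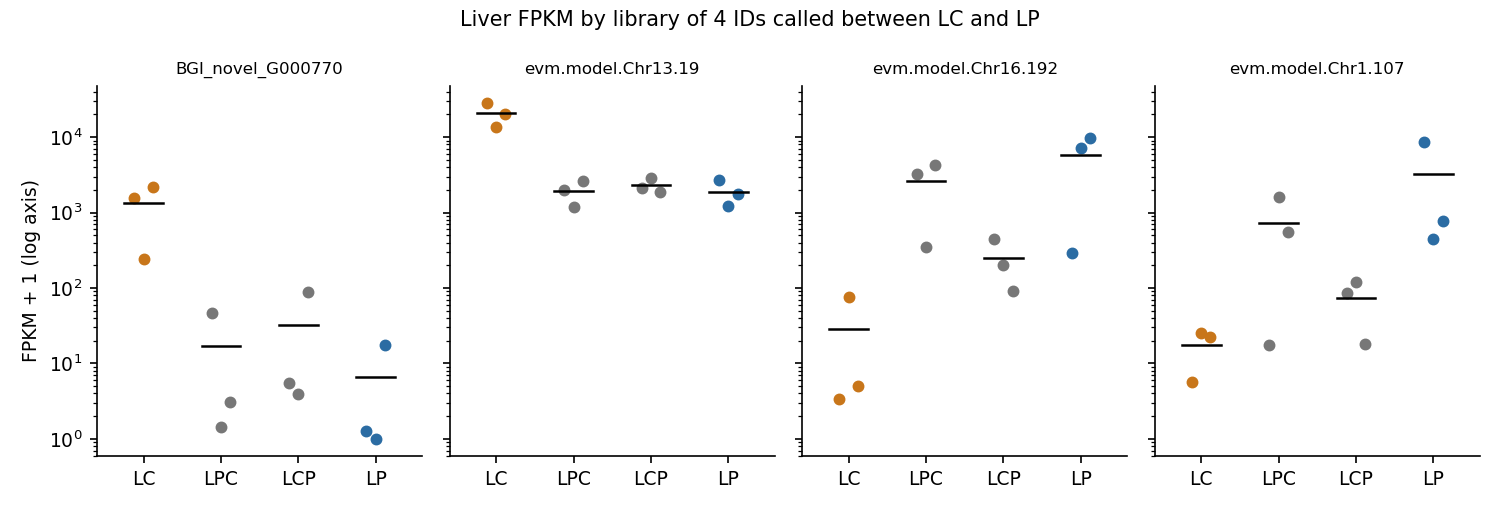
FPKM + 1 on a log axis in each liver library of LC, LPC, LCP and LP for the 4 IDs; points are libraries and lines are group means (n = 3). evm.model.Chr13.19 sat at 13647 to 28446 FPKM in LC and at 1210 to 2673 FPKM in LP, with both hybrids beside LP.

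Among the parental livers, LC 2 and LP 1 each carried a group of IDs that no other parental liver approached. An ID was counted for a library if it had at least 20 FPKM there and more than 8 times the highest of the other 5 livers plus 1. This gave 35 IDs in LC 2 and 38 in LP 1, against 2 in LC 1, 7 in LC 3, 5 in LP 2 and 1 in LP 3. These IDs were chosen by their values, so their levels in the 6 livers are a description. The 35 IDs took 16.4% of the FPKM sum of LC 2 and 0.623% to 1.03% in the other 5 livers. The 38 IDs took 4.39% of LP 1 and 0.00492% to 0.247% in the others.

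The IDs of LC 2 were led by evm.model.Chr20.749, with 98787 FPKM in LC 2, against 4233 and 5773 in the other LC livers and 4104, 5473 and 5802 in LP 1 to 3. It was the most abundant ID of that library. Next was evm.model.Chr2.132, with 43115 FPKM in LC 2, 763 and 3237 in LC 1 and 3, and 686, 1155 and 625 in LP 1 to 3. Neither was called between the species (limma adjusted p = 0.461 and 0.256). Of the 35 IDs 31 were compared and 1 was called, against 9.63% over all IDs. The rule kept LC 1 and LC 3 far below LC 2, which widens the spread within LC and works against a call. The lack of calls is therefore no result about these IDs.

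Hybrid livers, which the choice did not use, also had high levels of the IDs of LC 2. The 35 IDs held 4.93% to 10.3% of the FPKM sum in the 6 hybrid livers, between LC 2 and the other parental livers. For evm.model.Chr20.749 the hybrids had 27587, 32799 and 45124 FPKM in LPC and 41609, 46478 and 64461 FPKM in LCP. All 6 hybrid livers lay above the other 5 parental livers for 17 of the 35 IDs, and for 0.703% of all IDs compared. The choice of the 35 kept those 5 livers low relative to LC 2, so the 0.703% is not a like background. For the 38 IDs of LP 1, all 6 hybrid livers lay above the other 5 parental livers for 0, and for 0.356% of all IDs compared. That 0 is near the share over all IDs, so it is no result about the 38. The share of the FPKM sum held by the 38 was 0.0106% to 1.0% in hybrids, highest in LPC 2. Of the 35 IDs, 16 were liver-enriched in the hybrids, 3 brain-enriched and 0 muscle-enriched. Of the 38, 25 were liver-enriched and 0 brain- or muscle-enriched.

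Both groups of IDs bear on comparisons that include these libraries. Of the 38 IDs of LP 1, 34 were compared and 14 were called lower in LC (4.89% over all IDs), evm.model.Chr1.107 among them. They were chosen for high values in an LP liver, so these calls add nothing. With LC 2 and LP 1 both left out, 313 IDs were higher and 323 lower, of which 256 and 260 were among the 560 and 577. The liver-enriched IDs then had 57 higher and 73 lower of 783 (16.6%) and the BGI_novel transcripts 98 and 131 of 1021 (22.4%), against 5.39% of all IDs.

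**Figure D4:**
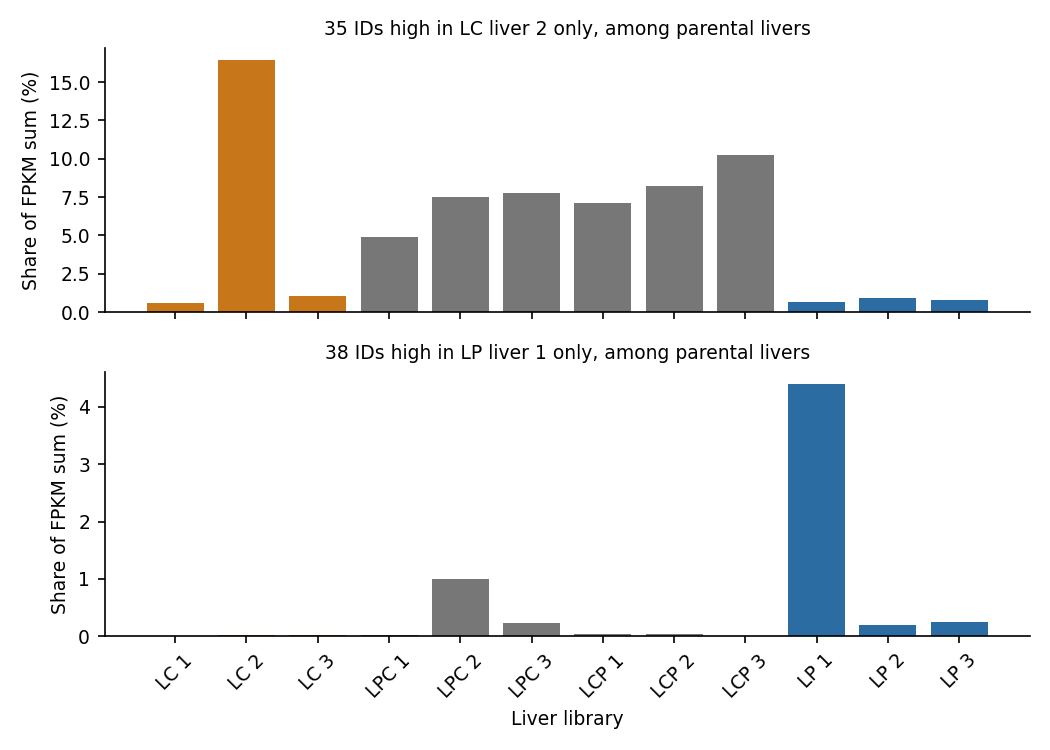
Share of the FPKM sum (%) held in each of the 12 liver libraries by the 35 IDs high in LC 2 among the parental livers (upper panel) and by the 38 IDs high in LP 1 (lower panel). The upper group held 16.4% of LC 2 and 4.93% to 10.3% of the hybrid livers, and at most 1.03% of the other parental livers.

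The species differences of liver were looked up in brain and muscle, which are other libraries. The labels do not say whether same-numbered tissues came from the same fish. Over IDs expressed in both, deviations from the group mean correlated at 0.113 to 0.293 between same-numbered liver and brain and at 0.188 to 0.304 between liver and muscle, so these tissues are not independent samples. In brain, 441 of the 560 IDs higher in LC liver could be compared, and 347 (78.7%) had a positive LC minus LP difference. Of the 577 lower ones 397 could be compared, and 68 (17.1%) were positive. The IDs not called in liver were positive in 35.6%. Called in brain as well were 75 of the 441 as higher (17.0%, against 1.36% of all IDs tested in brain) and 53 of the 397 as lower (13.4%, against 1.0%). In the opposite direction, 2 of the 441 were called lower (0.45%) and 2 of the 397 higher (0.50%). Of the IDs not called in liver, 0.55% were lower and 0.42% higher in brain. The opposite calls were thus near the share among other IDs.

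In muscle the deposited values were shifted towards LP as a whole, with a median LC minus LP difference of -0.71 over 9329 IDs, 261 higher (2.8%) and 4437 lower (47.6%). Muscle is therefore given after median-ratio scaling, where the median was -0.04, with 586 IDs higher (6.28%) and 744 lower (7.98%). Of the IDs higher in LC liver, 313 could be compared, 260 were positive in muscle (83.1%) and 90 were called higher (28.8%). Of the lower ones, 281 could be compared, 47 were positive (16.7%) and 97 were called lower (34.5%). The IDs not called in liver were positive in 44.8%. Opposite calls were 3 (0.96%) and 6 (2.135%). Of the IDs not called in liver, 7.2% were called lower and 3.975% higher in muscle. After the same scaling in brain, 278 IDs were higher there (1.69%) and 158 lower (0.962%). On these scales 44 of the 560 IDs higher and 34 of the 577 lower in LC liver had the same call in brain and in muscle. The 560 and 577 include IDs that could not be compared in brain or in muscle. The share of all IDs called the same way in both tissues was not counted, so these counts have no background beside them.

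**Figure D5:**
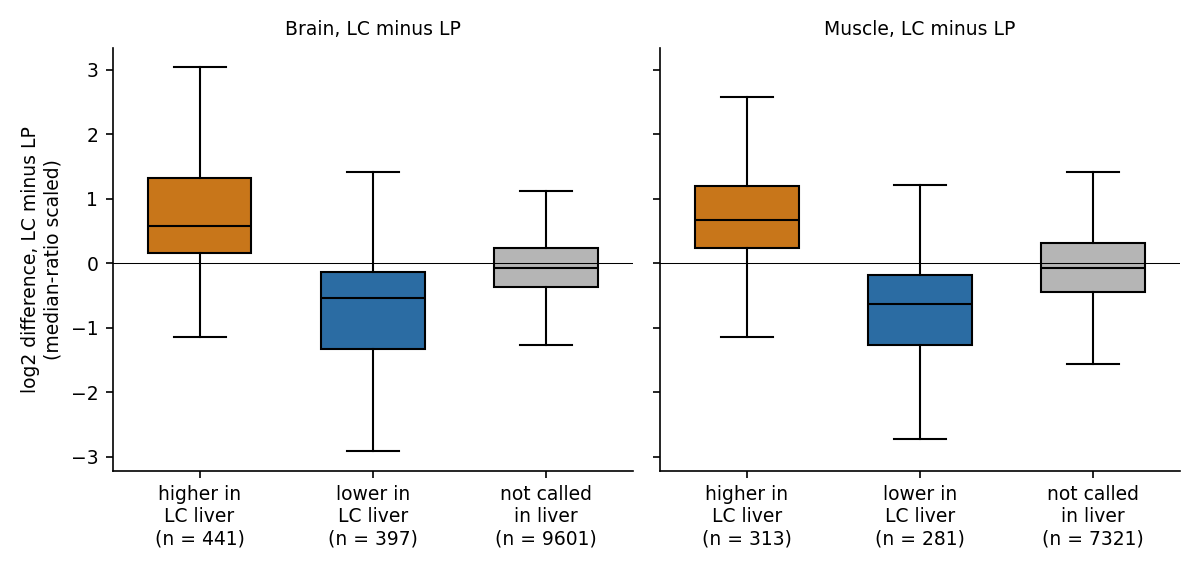
LC minus LP log2 difference in brain (left) and muscle (right), after median-ratio scaling within the tissue, for IDs called higher in LC liver, called lower, or not called; boxes span the quartiles with the median, whiskers reach 1.5 times the box length at most. Medians in brain were 0.58, -0.54 and -0.07, and in muscle 0.67, -0.64 and -0.07.

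Few IDs had a species difference in liver that could be told apart from that in brain. In the test of the difference itself, over 10439 IDs expressed in both, 83 (0.795%) had a higher LC minus LP difference in liver than in brain and 62 (0.594%) a lower one (limma interaction, adjusted p under 0.05). Among the 441 IDs called higher in LC liver, 60 were called as more positive in liver than in brain, and among the 397 lower ones 46 as more negative. With same-numbered liver and brain libraries of a species taken as a pair (replicate block), the counts were 36 and 29. Without LP 2 and with no block the counts were 44 and 34, and without LP 3 the lower count was 37. These tests reuse the liver libraries that gave the calls.

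Between liver and muscle, the count depended on the scale. As deposited, 2489 of 7915 IDs (31.4%) had a higher difference in liver and 72 (0.91%) a lower one, with a median difference of 0.76. After scaling within each tissue the median was 0.08, and the counts were 230 (2.91%) and 149 (1.88%). All 230 and 66 of the 149 were called the same way as deposited. On the scaled values, 69 of the 313 IDs higher in LC liver were called as more positive in liver than in muscle, and 62 of the 281 lower ones as more negative. Those IDs were chosen by their difference in the same liver libraries, which favours such calls, so these counts add no support. Without LP 2 the count of 2489 became 1637.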

How the data were processed

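RNA sequencing of 36 libraries was used, of which the 3 LC and 3 LP livers carry the comparison. Per the labels' protocols, TRIzol RNA was selected for poly(A) with oligo(dT) beads, reverse transcribed from random hexamers and made into circularised libraries; no strand-marking step is described. The tool fastp is listed, per the submitters' processing notes. Which aligner, quantifier, genome build and annotation were used is not given in the sources used here. The authors deposited FPKM values with 2 decimals, 1 column per library. FPKM divides by gene length and library total, so a few abundant transcripts can lower all other values.

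The depth of each library is unknown. Between 0.05 and 0.3 FPKM, log2 ratios to LC liver 1 showed no step of 1 fragment (the fullest bin, 0.1 wide, held 10.3% to 11.5% of IDs), and whole fragments were not recovered. No interval from counts is given.

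IDs with at least 1 FPKM in at least 3 of the 6 livers were fitted as log2(FPKM + 1) with limma 3.58.1 in R 4.3.3, using a trended prior variance, 2-sided, with Benjamini-Hochberg adjustment across the 11809 IDs, called at an adjusted p under 0.05. Fold changes on this scale understate changes of low values. Brain and muscle were fitted alike, and differences between tissues by an interaction over IDs that passed in both. The fit was tested on simulated data. No replicate block was used in the main fits, since the labels do not say that the numbers mark a shared fish, day or batch. Same-numbered LC and LP livers did not deviate together (correlations of -0.0118, 0.0259 and -0.0252). Same-numbered tissues of a species did deviate together: each liver library correlated best with the brain and the muscle library of its own number (0.113 to 0.304), a pairing taken from the data and not from the labels. The rule for the named IDs took, per direction, the largest difference with at least 5 FPKM in both species and the highest level, among called IDs without overlap. Lists of gene symbols could not be matched. The IDs and groups were chosen with earlier results of these data known.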

Additional observations from a re-analysis of the deposited data

Results flagged for a closer look

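The difference between LC and LP was called as different between liver and brain for few IDs. Between liver and muscle the number depended on the scale. In the limma interaction test, 83 IDs (0.795%) had a higher LC minus LP difference in liver than in brain and 62 (0.594%) a lower one, of 10439 compared. Between liver and muscle, 2489 (31.4%) had a higher difference in liver and 72 (0.91%) a lower one, of 7915 compared, as deposited. After scaling within each tissue these were 71 and 78 against brain, and 230 and 149 against muscle. With same-numbered liver and brain libraries as a replicate block, 36 and 29 were called against brain.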

How the results depend on the processing

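The 560 higher and 577 lower calls in LC liver stayed within 1.5 times under most of the other pseudocounts, scalings and variance models. They became 361 and 334 at a minimum of 5 FPKM (fewer IDs tested) and 1008 and 947 with all 12 liver libraries (more libraries). The lower calls became 906 with sums that exclude the 50 most abundant IDs; the cause was not tested. Leaving out 1 library gave 263 to 510 higher and 296 to 437 lower; leaving out LC 2 and LP 1, chosen after seeing the data, gave 313 and 323. With the replicate number as a block there were 391 and 414, but these numbers mark no stated pairing. IDs found in 1 species became 117 for LC and 150 for LP with absence set under 0.5 FPKM (a wider definition).

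The liver minus brain counts of 83 and 62 became 36 and 29 with same-numbered libraries as a replicate block (2613 and 91 against muscle, from 2489 and 72), and 44 to 93 and 34 to 63 without 1 liver library. The liver minus muscle counts of 2489 and 72 became 230 and 149 after scaling, and 1637 to 2461 and 54 to 65 without 1 liver library. Muscle calls became 586 and 744 after scaling. The LC minus LP share of the 10 most abundant IDs, -10.1 percentage points (31.3% ± 2.07 in LC, 41.4% ± 5.68 in LP, SD, n = 3 each), was -11.7 to -6.81 without 1 library. Counts by tissue class stayed within 1.5 times under median-ratio scaling. Groups were also counted under the 5 other scalings, chosen after seeing the data. The balance of calls turned for broad IDs (27 higher and 15 lower) to 16 and 17 with equal sums and 15 and 26 with sums that exclude the 50 most abundant IDs, and for brain-enriched IDs (114 and 80) to 85 and 110 and to 78 and 134; muscle-enriched IDs (14 and 13) had 11 and 21 on the second of these scales. The median of the 144 IDs of at least 1000 FPKM turned from 0.41 to -0.08 after quantile normalization, which forces equal distributions. Depth is unknown and limits low values most.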
